A study of Mus musculus with 6 samples.

Results

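Dtx3l, Parp9, Parp10, Parp11, Parp12, Parp14 and Zc3hav1 are 7 of the 54532 genes in the deposited expression table, and they were selected by name as the Deltex ligase Dtx3l, its partner Parp9 and the PARP genes known for antiviral roles. The names were chosen with the difference between the genotypes in these libraries already known, so that difference is given for them as a description. RNA was sequenced from bone marrow cells carrying CD11b, an integrin chain of myeloid cells, that had been enriched from the tibias of mice aged 12 weeks with a kit for positive selection. The title of the series concerns thyroid-stimulating hormone, AMPK signalling and bone-resorbing osteoclasts. Of 6 libraries, 3 are labelled Tshr-/-, a label for animals lacking the receptor of that hormone, and 3 are labelled Tshr+/+, the wild type. Another label calls the mutant animals a knockdown, and the allele, the strain and the sex are not stated in the labels. The same labels name osteoclast differentiation as a treatment in every library, with no time and no culture step, so both groups share whatever that entry covers.

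PARP enzymes transfer ADP-ribose from NAD+ to proteins or nucleic acids. The poly-ADP-ribosylating members act mainly in DNA repair, whereas most of the genes described here encode enzymes that attach a single ADP-ribose unit or proteins that have lost catalytic activity, and interferon induces many of them in myeloid and other cells. The Dtx3l protein is a ubiquitin ligase that forms a complex with the Parp9 protein, and in human cells this complex has been tied to DNA repair. Zc3hav1 encodes ZAP, also called PARP13, a zinc finger protein without ADP-ribosylating activity that binds CpG-rich viral RNA and directs its decay.

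Sequencing depth ranged over 14698126 to 17976477 fragments a library, and Itgam, the gene of CD11b, had 106, 134 and 87.4 FPKM in Tshr-/- 1, 2 and 3, against 111, 125 and 114 FPKM in Tshr+/+ 1, 2 and 3. FPKM are corrected for gene length as well as library size, so levels can be compared between genes. For Tshr, the libraries labelled Tshr-/- 1, 2 and 3 had 0.414, 0.297 and 0.00825 FPKM, from 40, 25 and 1 fragments, against 0.537, 0.552 and 0.405 FPKM in Tshr+/+ 1, 2 and 3 (exact two-sided permutation test, p = 0.2; the smallest p that 3 against 3 libraries allow is 0.1). Transcripts of the targeted gene were thus near 0 in Tshr-/- 3 alone, and the values cover the whole gene model, whichever part of it was deleted. Groups are therefore named by their labels, and results are also given without the libraries labelled Tshr-/- 1 and 2. Nothing in the labels says more of the animals than a number in the title, so any p-value measures the spread between these libraries.

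The ligase gene and its partner had higher mean levels in the libraries labelled Tshr-/-. Dtx3l (ENSMUSG00000049502, chromosome 16, 35926511 to 35939151 of GRCm38, minus strand) had 6.70, 6.004 and 7.29 FPKM in Tshr-/- 1, 2 and 3, against 3.26, 3.50 and 5.10 FPKM in Tshr+/+ 1, 2 and 3. Every Dtx3l value labelled Tshr-/- lay above every Tshr+/+ value, with means of 6.66 ± 0.643 and 3.95 ± 1.000 FPKM (SD, n = 3 each), a ratio of 1.69. Parp9 (ENSMUSG00000022906, chromosome 16, 35938470 to 35972605, plus strand) had 6.28, 5.94 and 7.19 FPKM in Tshr-/- 1, 2 and 3, against 3.51, 4.31 and 6.19 FPKM in Tshr+/+ 1, 2 and 3. The groups overlapped for Parp9, because the library Tshr+/+ 3 stood above Tshr-/- 2. Within each library number Parp9 was higher in Tshr-/-. The unadjusted p was 0.0571 in limma, and 0.0212 with the replicate number as a block (adjusted p = 0.9997 and 0.820). The labels do not pair the libraries, and the block was taken from these same data, so nothing is read from the smaller p. Its means were 6.47 ± 0.646 and 4.67 ± 1.38 FPKM (SD, n = 3 each).

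Dtx3l and Parp9 lie head to head, and their annotated exons share 458 bases on opposite strands, which is 8% of the length counted for Dtx3l and 9.40% of that for Parp9. The sources used here do not give whether counting used the strand, so fragments from those bases cannot be assigned to either gene with certainty. The sequence that holds the start of Dtx3l is shown because a start of Parp9 lies in it too (chr16:35938978-35939277, minus strand, GRCm38.p6, from RefSeq). It was placed on the RefSeq start of Dtx3l at 35939027, which lies downstream of the GENCODE start. Capitals mark the 141 bases between the GENCODE start of Dtx3l at 35939151 and the later of 2 coding starts of Parp9 at 35939011, a stretch that transcripts of both genes cover.
Dtx3l: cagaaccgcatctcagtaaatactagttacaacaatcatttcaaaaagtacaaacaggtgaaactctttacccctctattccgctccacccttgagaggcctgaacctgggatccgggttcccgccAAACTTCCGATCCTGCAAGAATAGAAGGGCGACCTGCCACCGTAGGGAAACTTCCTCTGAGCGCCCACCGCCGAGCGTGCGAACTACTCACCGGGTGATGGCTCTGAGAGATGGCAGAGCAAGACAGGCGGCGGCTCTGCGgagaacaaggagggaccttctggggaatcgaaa

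Within a library the Parp9 level relative to Dtx3l was 0.937, 0.99 and 0.986 in Tshr-/- 1, 2 and 3, against 1.08, 1.23 and 1.21 in Tshr+/+ 1, 2 and 3. This ratio does not depend on the scaling between libraries. The 3 ratios labelled Tshr-/- were all below those of Tshr+/+. The difference of Dtx3l, the denominator, was known when the names were chosen, and the share of other gene pairs with such an order was not computed. Nothing is therefore read from that order. The 95% counting interval of Tshr-/- 1, 0.832 to 1.05, overlapped that of Tshr+/+ 1, 0.917 to 1.26, but not those of Tshr+/+ 2, 1.06 to 1.43, and Tshr+/+ 3, 1.08 to 1.37. The intervals of Tshr-/- 2, 0.867 to 1.13, and Tshr-/- 3, 0.893 to 1.09, overlapped those of all Tshr+/+ libraries.

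Parp14 and Parp12, which encode enzymes that add a single ADP-ribose, had values in Tshr-/- that did not overlap those in Tshr+/+. Parp14 (ENSMUSG00000034422, chromosome 16, 35832874 to 35871544, minus strand), whose protein carries macrodomains that bind ADP-ribose, had 7.60, 7.31 and 9.61 FPKM in Tshr-/- 1, 2 and 3, against 3.77, 5.28 and 7.25 FPKM in Tshr+/+ 1, 2 and 3. The lowest Tshr-/- library, number 2, and the highest Tshr+/+ library, number 3, nearly touched. Parp12 (ENSMUSG00000038507, chromosome 6, 39086410 to 39118349, minus strand), a zinc finger relative of Zc3hav1, had 7.61, 7.68 and 9.96 FPKM in Tshr-/- 1, 2 and 3, against 3.82, 4.55 and 6.94 FPKM in Tshr+/+ 1, 2 and 3. The means of Parp14 were 8.18 ± 1.25 and 5.43 ± 1.74 FPKM and those of Parp12 8.42 ± 1.34 and 5.10 ± 1.63 FPKM, in Tshr-/- and Tshr+/+ (SD, n = 3 each). Parp14 and Parp12 stood at nearly the same level over all libraries, 6.80 and 6.76 FPKM, and Dtx3l and Parp9 a little lower at 5.31 and 5.57 FPKM; neighbours in this order differ by less than the spread between libraries.

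Parp10 and Parp11 showed overlapping groups. Parp10 (ENSMUSG00000063268, chromosome 15, 76231174 to 76243441, minus strand), a mono-ADP-ribosyltransferase gene, had 36.0, 34.2 and 24.6 FPKM in Tshr-/- 1, 2 and 3, against 31.6, 33.1 and 22.6 FPKM in Tshr+/+ 1, 2 and 3. Library number 3 was the lowest in both genotypes, and within each library number Parp10 was higher in Tshr-/- (limma with the replicate number as a block, unadjusted p = 0.249, against 0.580 without it). The means were 31.6 ± 6.09 and 29.1 ± 5.66 FPKM (SD, n = 3 each, Tshr-/- and Tshr+/+). In the annotation, 205 exon bases of Parp10, or 4.80% of its counted length, are shared with Plec on the same strand. Parp11 (ENSMUSG00000037997, chromosome 6, 127446840 to 127494261, plus strand), a mono-ADP-ribosyltransferase gene of low level here, had 1.05, 0.964 and 1.16 FPKM in Tshr-/- 1, 2 and 3, against 0.459, 0.636 and 1.49 FPKM in Tshr+/+ 1, 2 and 3. The Tshr+/+ values of Parp11 spanned 3.25-fold and enclosed all Tshr-/- values, which spanned 1.201-fold. Its fragments numbered between 55 and 194 a library, with a counting error of 7.18% to 13.5%, and it was the shallowest of the 7; the other 6 had between 260 and 5802 fragments.

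Zc3hav1 was the most abundant of the 7 genes and the only 1 with a lower mean in Tshr-/-. Zc3hav1 (ENSMUSG00000029826, chromosome 6, 38305286 to 38354603, minus strand) had 43.6, 42.7 and 32.7 FPKM in Tshr-/- 1, 2 and 3, against 49.2, 53.7 and 29.5 FPKM in Tshr+/+ 1, 2 and 3. The Tshr+/+ libraries enclosed the Tshr-/- libraries, with Tshr+/+ 2 highest and Tshr+/+ 3 lowest. The means were 39.7 ± 6.04 FPKM in Tshr-/- against 44.2 ± 12.9 FPKM in Tshr+/+ (SD, n = 3 each). Zc3hav1 exceeded Parp10, the next in level, in each of the 6 libraries.

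**Figure D1:**
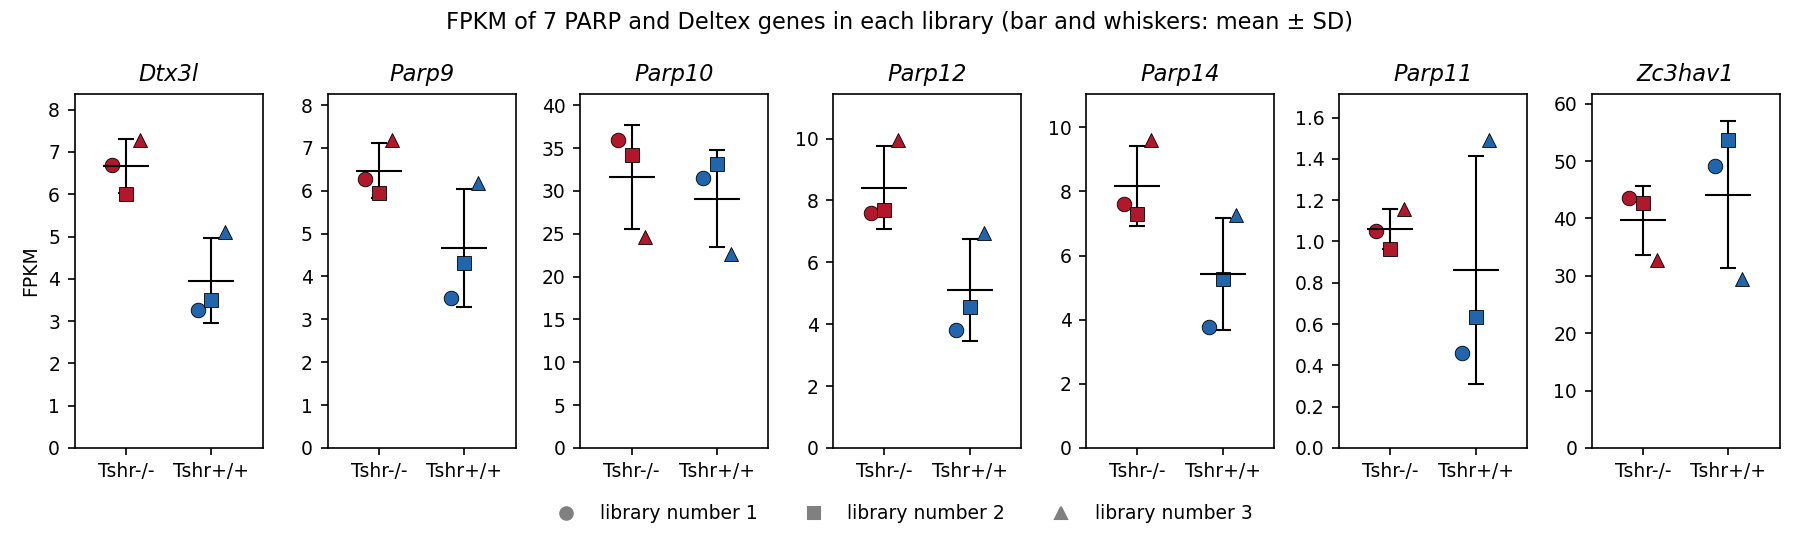
Each panel plots the FPKM of a gene (vertical axis, starting at 0) in the 3 libraries labelled Tshr-/- (red, left) and the 3 labelled Tshr+/+ (blue, right); symbols give the library number, and the bar with whiskers is the mean ± SD. Dtx3l, Parp12 and Parp14 have no overlap between the groups, while Zc3hav1 at 29.5 to 53.7 FPKM in Tshr+/+ encloses its Tshr-/- values.

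None of the 7 genes passed the comparison across the table, limma on log2(FPKM + 1) over 10913 genes with Benjamini-Hochberg adjustment, which called 0 genes higher and 0 lower (a background of 0%); the voom method on whole fragments also called 0. At an unadjusted p under 0.05 stood 317 genes, 3 of the 7 among them, and limma's adjusted p was 0.9997 for each of the 7. On the log2(FPKM + 1) scale, where differences of low genes are understated, the differences of Tshr-/- minus Tshr+/+ were 0.65 ± 0.21 (SE) for Parp12, 0.64 ± 0.16 (SE) for Dtx3l, 0.54 ± 0.21 (SE) for Parp14 and 0.42 ± 0.18 (SE) for Parp9. They were 0.18 ± 0.22 (SE) for Parp11, 0.12 ± 0.20 (SE) for Parp10 and -0.12 ± 0.24 (SE) for Zc3hav1. Their median was 0.42, against -0.01 over all genes tested. All Tshr-/- values lay above all Tshr+/+ values for 3 of the 7 genes, Dtx3l, Parp12 and Parp14, where 3.23% of all genes tested did so; since this difference was known when the names were chosen, nothing is read from that share. With FPKM rescaled to equal totals, only Dtx3l of the 7 kept groups without overlap, where 3.13% of all genes tested lay wholly higher.

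Single libraries weighed on these differences. Without the library Tshr+/+ 1, the log2 difference was 0.27 for Parp9 and 0.34 for Parp14, and the median of the 7 was 0.27. The difference of Parp11 was 0.027 without Tshr+/+ 1 and 0.41 without Tshr+/+ 3, and also 0.41 with a pseudocount of 0.1 FPKM and 0.47 with voom. Without the libraries labelled Tshr-/- 1 and 2, which still held Tshr fragments, the differences were 0.76 for Dtx3l, 0.88 for Parp12, 0.76 for Parp14 and 0.56 for Parp9, from a lone Tshr-/- library that is assumed to vary like the other group. That library, Tshr-/- 3, held the highest value of its group for each of these genes, as Tshr+/+ 3 did in the other group. The larger differences therefore contain that order of the libraries and are not read as a stronger effect. Dtx3l was called when each library received its own weight (limma with array weights, adjusted p = 0.0450, where 0.119% of all genes were called higher). That fit gave Tshr-/- 1 a weight of 3.82, Tshr+/+ 2 a weight of 3.15 and Tshr+/+ 3 the lowest weight, 0.247. Tshr+/+ 3 held the highest Dtx3l value of its group. The adjusted p of Dtx3l was not under 0.05 in any other alternative.

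**Figure D2:**
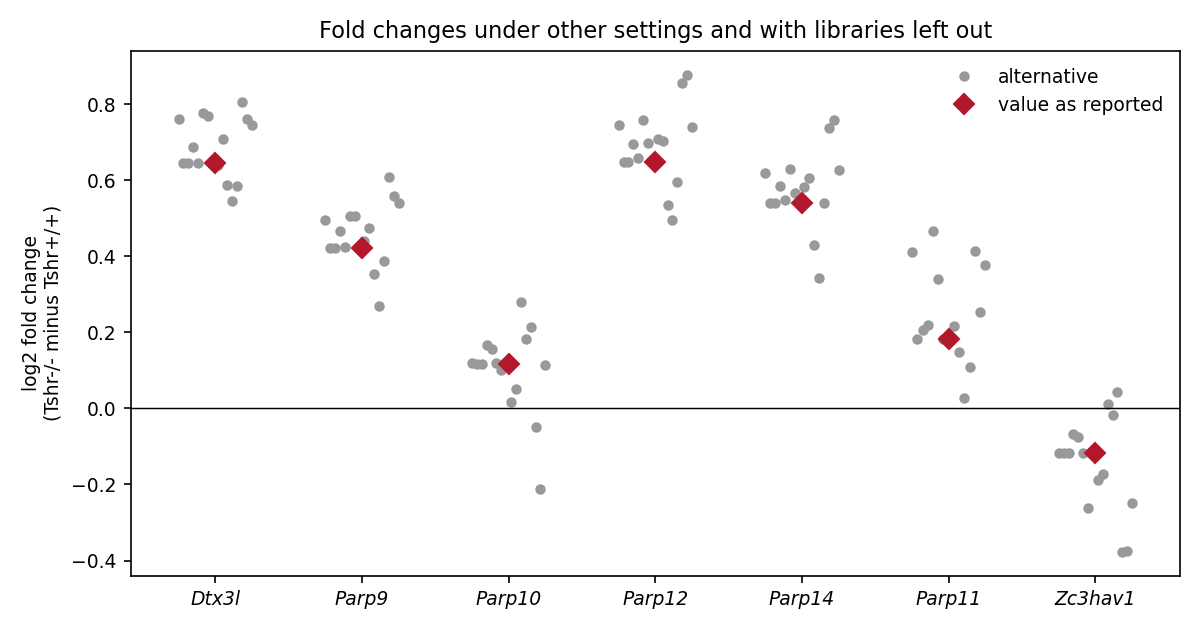
The vertical axis is the log2 fold change, Tshr-/- minus Tshr+/+, for each of the 7 genes (horizontal axis). Red diamonds are the values as reported and grey points the alternatives, including those with libraries left out; Dtx3l runs from 0.55 to 0.80 and Parp12 from 0.49 to 0.88, while Parp10 and Zc3hav1 cross 0.

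Within each genotype, a comparison that the choice of names did not use, the 7 genes fell into 2 sets by library number. Dtx3l, Parp9, Parp11, Parp12 and Parp14 were highest in library 3 of the Tshr-/- group and highest in library 3 of the Tshr+/+ group. Parp10 and Zc3hav1 were lowest in library 3 of both. In log2(FPKM + 1), Tshr+/+ 3 stood 0.32 above its genotype mean for Dtx3l, 0.37 for Parp9, 0.39 for Parp14, 0.41 for Parp12 and 0.46 for Parp11, and -0.33 from it for Parp10 and -0.52 from it for Zc3hav1. The shifts in Tshr-/- 3 had the same signs and were smaller for 6 of the genes, 0.12 for Dtx3l, 0.14 for Parp9, 0.22 for Parp14, 0.23 for Parp12 and 0.07 for Parp11, and -0.26 for Zc3hav1, and about equal at -0.33 for Parp10. Over all genes tested, 36.1% were highest of their group in Tshr-/- 3 and 41.3% in Tshr+/+ 3. The shares highest in both or lowest in both were not computed. Deviations of Tshr-/- 3 and Tshr+/+ 3 from their genotype means correlated at 0.468 over the 10913 genes tested, so a shared order is not particular to the 7 genes. The 2 sets were drawn after these values were seen and are a description.

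**Figure D3:**
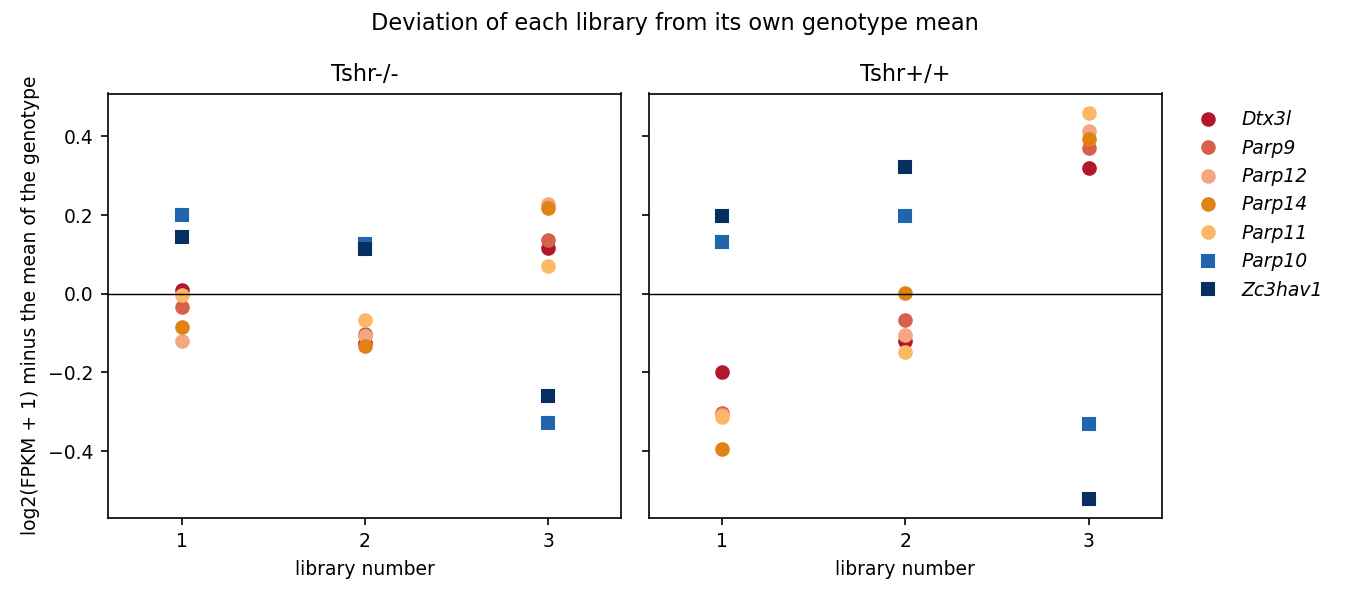
The vertical axis is log2(FPKM + 1) of a library minus the mean of its own genotype, and the horizontal axis the library number, for Tshr-/- (left) and Tshr+/+ (right); each point is 1 gene in 1 library. Circles (Dtx3l, Parp9, Parp12, Parp14, Parp11) are highest at number 3 in both panels, and squares (Parp10, Zc3hav1) lowest there, reaching -0.52 for Zc3hav1 in Tshr+/+ 3.

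Markers of cell types also differed between libraries, and in bulk RNA fewer cells of a type and less RNA per cell cannot be told apart. The summed level of 7 neutrophil markers, all tested, was 129048, 141942 and 91408 FPKM in Tshr-/- 1, 2 and 3, against 120392, 138075 and 113802 FPKM in Tshr+/+ 1, 2 and 3. The sum was lowest in library 3 of each genotype, as were Parp10 and Zc3hav1, but the single markers differed: 7 of 7 were lowest in Tshr-/- 3, whereas 3 of 7 were lowest in Tshr+/+ 3 and 4 in Tshr+/+ 1. The summed level of 5 monocyte markers, all tested, was 614, 508 and 571 FPKM in Tshr-/- 1, 2 and 3, against 469, 495 and 537 FPKM in Tshr+/+ 1, 2 and 3. This sum was highest in Tshr-/- 1 and Tshr+/+ 3. Of the single monocyte markers, 4 of 5 were highest of their group in Tshr-/- 3 and 4 of 5 in Tshr+/+ 3, as were Dtx3l, Parp9, Parp11, Parp12 and Parp14, while Ly6c2, the most abundant, was lowest in Tshr-/- 3. Both tested B cell markers were also highest in library 3 of each genotype, and of 7 macrophage markers 7 were highest in Tshr-/- 3 and 3 in Tshr+/+ 3. The 6 T and NK cell markers, of which 3 were tested, summed to 78.3 to 97.6 FPKM in Tshr-/- and to 63.1 to 79.2 FPKM in Tshr+/+, and the 5 erythroid markers, 2 of them tested, to 77.8 to 130 and 44.4 to 108 FPKM. The 6 markers of plasmacytoid dendritic cells, which secrete interferon, were near the floor, with 1 tested and sums of 2.89 to 3.62 FPKM in Tshr-/- against 1.78 to 3.18 FPKM in Tshr+/+. The ranges were 89.4 to 140 and 110 to 144 FPKM for 7 macrophage markers, 3.67 to 8.56 and 5.58 to 9.21 FPKM for 5 B cell markers (2 tested), and 430 to 1353 and 650 to 1142 FPKM for 5 markers of eosinophils, basophils and mast cells, in Tshr-/- and Tshr+/+. No marker was at 0 in every library, and the part of these cells in the levels of the 7 genes was not tested.

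No other PARP gene passed the comparison. Of 10 listed, 10 were tested and 0 passed in either direction; 5 had a mean difference above and 5 below 0, with a median of 0.0007 and a range of -0.08 to 0.18 on the log2(FPKM + 1) scale. Parp4, the PARP of vault particles, had 14.4 ± 2.02 FPKM in Tshr-/- against 12.6 ± 1.56 FPKM in Tshr+/+, and the mono-ADP-ribosyltransferase gene Parp8 had 7.21 ± 0.294 and 6.86 ± 0.520 FPKM (SD, n = 3 each). Tiparp, an enzyme gene induced through the aryl hydrocarbon receptor, was the most abundant, with 57.6, 54.3 and 33.7 FPKM in Tshr-/- 1, 2 and 3, against 60.98, 63.7 and 27.8 FPKM in Tshr+/+ 1, 2 and 3. Like Zc3hav1, Tiparp was lowest in library 3 of each genotype.

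Among the Deltex ligases, 3 of 4 were tested and 0 passed. Dtx2 had 4.02 ± 0.559 FPKM in Tshr-/- against 3.28 ± 0.627 FPKM in Tshr+/+, and Dtx4, the most abundant, had 6.25 ± 0.583 and 7.12 ± 1.03 FPKM (SD, n = 3 each). Of 6 genes whose products remove ADP-ribose, 5 were tested and 0 passed, with a median log2 difference of -0.09. Macrod1, a macrodomain hydrolase, had 3.26 ± 0.290 FPKM in Tshr-/- against 3.94 ± 0.342 FPKM in Tshr+/+, without overlap (3.55% of all genes tested lay wholly lower), and Adprh, an arginine-specific hydrolase, had 43.6 ± 1.97 and 47.4 ± 2.47 FPKM. Of 12 genes for the supply and use of NAD, 6 were tested and 0 passed, with a median of -0.01. Nmrk1, a nicotinamide riboside kinase, had 2.69 ± 0.545 and 3.20 ± 0.809 FPKM, Naprt, which starts NAD synthesis from nicotinic acid, 1.32 ± 0.104 and 1.45 ± 0.220 FPKM, and the NAD kinase gene Nadk 151 ± 13.9 and 149 ± 10.8 FPKM, in Tshr-/- and Tshr+/+.

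Partners of ZAP and enzymes of RNA decay gave 10 tested of 11, of which 0 passed, with a median log2 difference of -0.003. Trim25, a ubiquitin ligase that ZAP needs as a cofactor, was the most abundant, with 45.4, 44.8 and 34.7 FPKM in Tshr-/- 1, 2 and 3, against 54.7, 53.4 and 26.8 FPKM in Tshr+/+ 1, 2 and 3. Its libraries stood in nearly the same order as those of Zc3hav1, with Tshr+/+ 3 lowest. The exonuclease gene Xrn1 had 2.19 ± 0.163 FPKM in Tshr-/- against 1.92 ± 0.349 FPKM in Tshr+/+, and the exosome subunit gene Exosc10 had 12.8 ± 1.04 and 13.5 ± 1.40 FPKM (SD, n = 3 each).

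**Figure D4:**
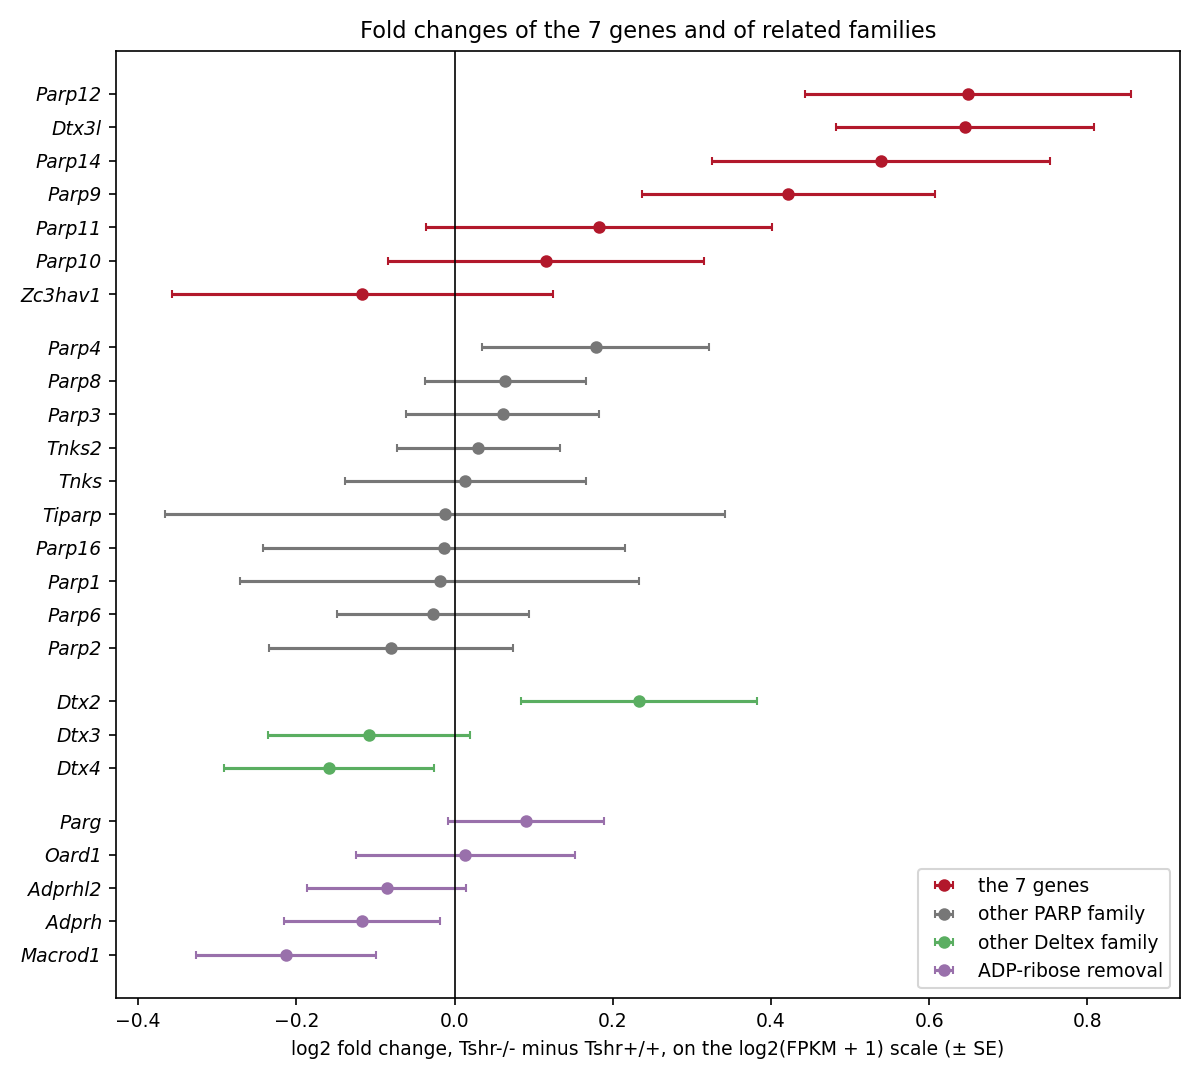
Points give the log2 fold change, Tshr-/- minus Tshr+/+, on the log2(FPKM + 1) scale (horizontal axis), with whiskers of 1 SE, for the 7 genes (red), other PARP genes (grey), Deltex ligases (green) and genes that remove ADP-ribose (purple). Parp12, Dtx3l, Parp14 and Parp9 lie between 0.42 and 0.65, and the other PARP genes between -0.08 and 0.18; none passed the adjusted threshold.

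Interferon-induced effectors outside the PARP family also had higher means in Tshr-/-. All 24 listed genes were tested and 0 passed, with a median log2 difference of 0.43. Of these, 24 had a difference above 0, where 5138 of all 10913 genes tested did. This list too was chosen with earlier results of these data known, so nothing is read from that count. With all libraries the median of the 7 PARP and Deltex genes was 0.42. Without the libraries labelled Tshr-/- 1 and 2 the median of the 24 was 0.28, against 0.56 for the 7. Both values rest on Tshr-/- 3 alone, where 16 of the 24 were lowest of their group and 5 of the 7 highest. The Schlafen gene Slfn5 had 10.6 ± 1.14 FPKM in Tshr-/- against 5.75 ± 1.51 FPKM in Tshr+/+, the guanylate-binding protein gene Gbp7 4.10 ± 0.201 and 2.43 ± 0.561 FPKM, and the nucleotide hydrolase gene Samhd1, the most abundant, 81.1 ± 7.47 and 80.1 ± 2.92 FPKM (SD, n = 3 each). Within the Tshr-/- group, 13 of the 24 were highest in library 1, 7 in library 2 and 4 in library 3, whereas 5 of the 7 PARP and Deltex genes were highest in library 3. Within Tshr+/+, 15 of the 24 and 5 of the 7 were highest in library 3. Of 11 genes of the interferon receptors and their signalling, 11 were tested, 7 had a difference above and 4 below 0, and 0 passed. Stat2, a transcription factor of the type I interferon response, had 9.66 ± 0.598 FPKM in Tshr-/- against 7.98 ± 0.154 FPKM in Tshr+/+, the receptor chain gene Ifngr2 had 13.2 ± 2.17 and 17.5 ± 1.71 FPKM, and Ifngr1, the most abundant, had 70.1 ± 10.5 and 74.5 ± 9.58 FPKM.

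Genes beside the 7 on the chromosomes had differences on both sides of 0. The 2 nearest tested coding genes on each side gave 20 genes, of which 11 had a difference above and 9 below 0, with a median log2 difference of 0.02, and 0 passed. On chromosome 16, where Parp14, Dtx3l and Parp9 follow each other, Hspbap1 on the outer side of Parp14 had 1.01, 1.51 and 1.12 FPKM in Tshr-/- 1, 2 and 3, against 1.06, 1.08 and 1.08 FPKM in Tshr+/+ 1, 2 and 3. Kpna1, an importin gene 6144 bases beyond Parp9, had 9.21, 7.28 and 7.08 FPKM in Tshr-/- 1, 2 and 3, against 11.5, 9.98 and 6.23 FPKM in Tshr+/+ 1, 2 and 3. The groups overlapped for both of these outer neighbours. They also overlapped for the next genes outward, Dirc2 and Wdr5b. Dirc2, beyond Hspbap1, had 4.83 ± 0.331 FPKM in Tshr-/- against 7.18 ± 1.89 FPKM in Tshr+/+ (SD), a log2 difference of -0.46 ± 0.19 (SE). Wdr5b, beyond Kpna1, had a log2 difference of -0.19 ± 0.16 (SE). Tbxas1, the thromboxane synthase gene 1824 bases from Parp12, had a log2 difference of 0.10 ± 0.14 (SE), and the histone demethylase gene Kdm7a on its other side of 0.35 ± 0.10 (SE). Kdm7a had 36.2, 34.97 and 38.5 FPKM in Tshr-/- 1, 2 and 3, against 27.2, 28.5 and 29.7 FPKM in Tshr+/+ 1, 2 and 3, without overlap. Of the 20 neighbours, 2 lay wholly higher in Tshr-/-, Kdm7a and Ubn2, where 3.23% of all genes tested did. Beside Zc3hav1, Trim24 had a log2 difference of -0.06 ± 0.13 (SE) and Ubn2 of 0.22 ± 0.12 (SE), and beside Parp11, Ccnd2 of 0.24 ± 0.17 (SE) and Cracr2a of 0.13 ± 0.13 (SE). Plec and Grina, which flank Parp10, had -0.22 ± 0.20 (SE) and -0.11 ± 0.28 (SE).

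**Figure D5:**
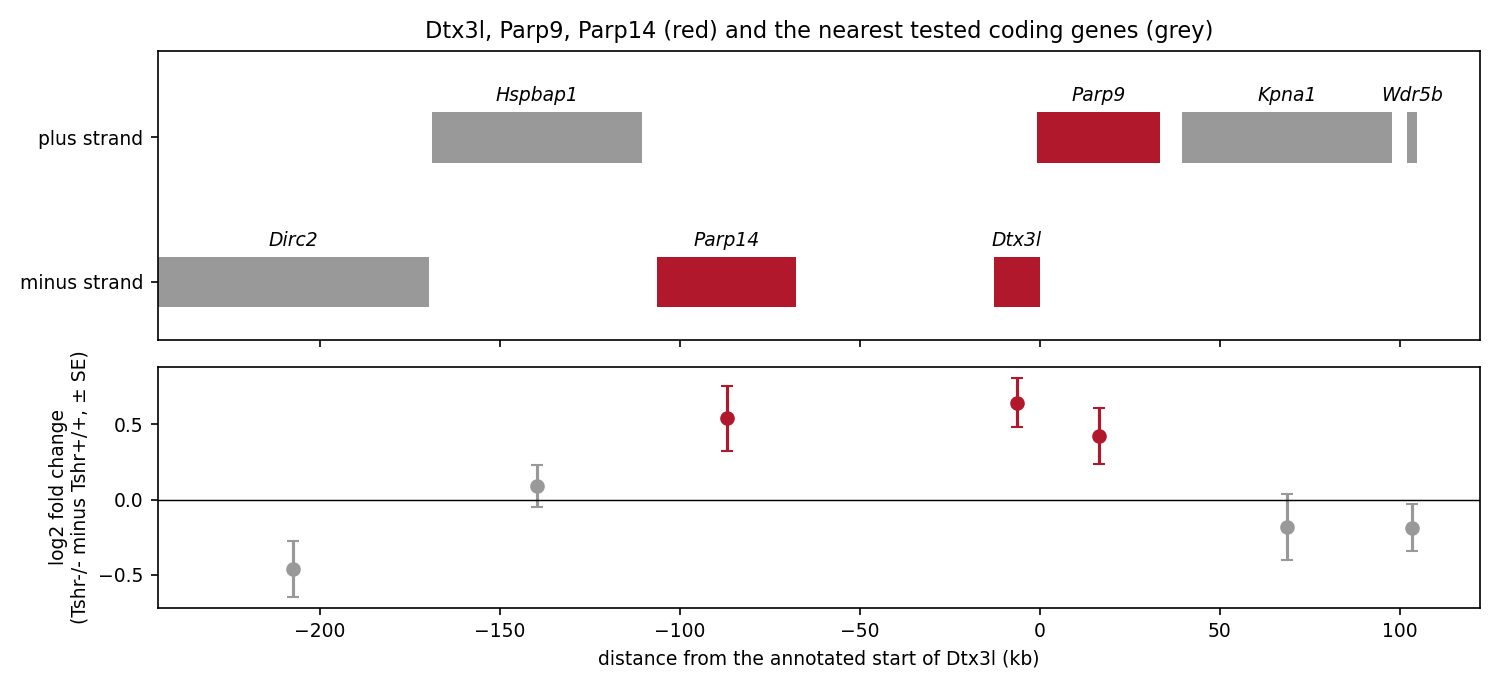
The upper panel draws Dtx3l, Parp9 and Parp14 (red) and the nearest tested coding genes (grey) to scale by strand, against the distance in kb from the annotated start of Dtx3l; the lower panel gives the log2 fold change of each, Tshr-/- minus Tshr+/+, with whiskers of 1 SE. The red genes lie at 0.42 to 0.64, and Hspbap1 and Kpna1 on either side at 0.09 and -0.18. Further out, Dirc2 lies at -0.46 and Wdr5b at -0.19.

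The genes whose levels most resembled Dtx3l over the 6 libraries were named by the root mean square difference of log2(FPKM + 1), each gene centred on its own mean. The nearest of 10912 other tested genes was Gbp7 at 0.0619, followed by the ubiquitin ligase gene Trim30a at 0.0850, Parp12 at 0.0919, Gm7846 at 0.0973 and the immunity-related GTPase gene Irgm1 at 0.109. Parp9 ranked 9 and Parp14 ranked 10, Parp11 301, Parp10 7718 and Zc3hav1 9566. Because Dtx3l differed between the groups, genes that differ in the same way rank high by construction. With a pseudocount of 0.1 FPKM, 2 of these 5 genes, Gbp7 and Parp12, stayed among the nearest 5.

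Promoter sequences were at hand for 4 of the 7 genes, Dtx3l, Parp11, Parp12 and Zc3hav1, as windows of 300 bases that run from 250 bases before a start to 50 after it (GRCm38.p6, from RefSeq). The core of the interferon-stimulated response element, GAAA followed by any 2 bases and GAAA, on either strand, occurred in 1 of the 4, in the upstream of 2 start windows of Parp11, and in 3.44% of 32851 windows. The gamma-activated site TTCNNNGAA, which reads the same on both strands, occurred in the same Parp11 window, sharing 3 bases with the element, and in 8.30% of all windows. Among the 24 other interferon-induced effectors, 12 of 20 genes with a window held that core. The element of Parp11 is shown beside those of the genes nearest to Dtx3l that hold it, each with 10 bases on either side, read 5′ to 3′ on the strand that spells the core, which is in capitals. The Parp11 stretch is chr6:127446786-127446815, minus strand, the Gbp7 stretch chr3:142530273-142530302, minus strand, the Trim30a stretch chr7:104465210-104465239, plus strand, the first of 2, and the Irgm1 stretch chr11:48871431-48871460, minus strand, the first of 2 that overlap.
Parp11: cgggttccaaGAAATCGAAActaaaaggaa
Gbp7: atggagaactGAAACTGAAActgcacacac
Trim30a: caggaactgaGAAAAAGAAActaaagaact
Irgm1: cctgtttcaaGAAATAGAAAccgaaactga
On the strand of the gene, the element began 44, 53, 36 and 30 bases before the start of Parp11, Gbp7, Trim30a and Irgm1. The windows of Dtx3l, Parp12 and Zc3hav1 did not hold these letters, which says nothing of a factor's binding. The Dtx3l window was placed on the RefSeq start, so it reaches fewer bases before the GENCODE start of that gene.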

How the data were processed

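The submitters deposited a table of FPKM values, made by the authors, for 6 libraries and 54532 genes, with gene lengths and positions. The genome was GRCm38 (mm10), per the submitters' processing notes; aligner, counter and strand setting: not given in the sources used here. Columns headed WT and HO with a number were matched to the titles, HO being read as homozygous Tshr-/-. FPKM multiplied by gene length gave whole fragments in 100% of values (tolerance 0.01), so fragments and counting intervals could be computed; intervals are exact Poisson or, for the ratio of Parp9 to Dtx3l, normal on the log scale, at 95%, and cover counting error only.

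The comparison of Tshr-/- with Tshr+/+ took genes reaching 1 FPKM in 3 or more libraries and used limma 3.58.1 (R 4.3.3) on log2(FPKM + 1) with a variance trend, two-sided, adjusted over all genes tested, threshold 0.05. Alternatives were another pseudocount, other filters, equal totals, quantile scaling, voom on genes with at least 10 fragments in 3 libraries, array weights, the replicate block and left-out libraries. Samples of the same number deviated together, with correlations across genes of 0.243 to 0.468, so the numbers of the titles were tried as a replicate block. Different numbers gave -0.485 to 0.344. Tshr-/- 1 correlated more with Tshr+/+ 2, at 0.344, than with Tshr+/+ 1, at 0.243. The labels state no pairing, so the replicate block is an alternative and not the main fit. The 7 genes, the lists and the naming rule were chosen with earlier results of these data known. Named were the 7 genes, Tshr, 3 genes of each list (the 2 of smallest p and the most abundant), neighbouring coding genes and the 5 genes most like Dtx3l. Gene structure is from GENCODE M21. The analysis was tested on simulated data.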

Additional observations from a re-analysis of the deposited data

How the results depend on the processing

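Over 16 alternatives, Dtx3l, Parp9, Parp12 and Parp14 kept differences above 0, and Parp11 did in the 15 that tested it. All alternatives reuse these same libraries. For Dtx3l, Parp12 and Parp14, whose groups did not overlap, leaving libraries out could not turn the sign. Nothing is therefore read from how often the sign was kept. Of 111 values of single genes, 4 reversed, and the cause was not tested: Zc3hav1 was 0.013 without Tshr-/- 3 and 0.044 without Tshr+/+ 2, and Parp10 was -0.050 without Tshr+/+ 3 and -0.21 without the libraries labelled Tshr-/- 1 and 2. Leaving out 1 library at a time, Parp10 ran from -0.050 to 0.28, Parp11 from 0.027 to 0.41 and Zc3hav1 from -0.38 to 0.044, the median of the 7 genes ran from 0.27 to 0.61, genes called higher from 0 to 2, genes called lower from 0 to 0, and genes of the 7 without overlap from 3 to 5 (5 without Tshr+/+ 3, where 15.3% of all genes lay wholly higher). Without the libraries labelled Tshr-/- 1 and 2 that median was 0.56. That of the 24 other interferon-induced effectors was 0.28. Both rest on Tshr-/- 3 alone, where 5 of the 7 genes were highest of their group and 16 of the 24 lowest. Array weights called 13 higher and 11 lower genes, and leaving out both libraries numbered 3 also called 13 and 11, with 3 genes shared and 1 and 0 of the 7 among them. Without those libraries, 6 of the 7 had no overlap, beside 21.0% of all genes; with equal totals, 1 of the 7 had none, beside 3.13%. With the replicate block, Dtx3l was 0.64 ± 0.12 (SE), adjusted p = 0.740 in limma, 0 genes were called higher and 0 lower, 651 had an unadjusted p under 0.05, and no call changed. The interferon element stood in 1.74% of windows on the gene's own strand. Depth limits Parp11 most.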
